A study of Mus musculus with 21 samples.

Results

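Genes of the Lhx, Pax, Dlx, Irx, Barx, Nkx and Six-type families encode transcription factors that pattern the embryo, and their transcripts were examined in mouse embryonic stem cells (mESCs) that lacked PDS5 cohesin subunits. Members were chosen by symbol: Lhx, Pax, Dlx, Irx, Barx or the Six-stem followed only by a number, or Nkx with 2 numbers joined by a hyphen, without 2 Pax genes, 1 of them Pax6. The rule gave 48 of the 23412 gene symbols counted, namely 13 Nkx, 8 Lhx, 7 Pax, 6 Six-type, 6 Dlx, 6 Irx and 2 Barx genes. All were v6.5 mESCs, grown on gelatin in serum, transfected with 50 nM of an siRNA and collected 48 h later for poly-A RNA sequencing, with 3 libraries in each of 7 conditions. WT mESCs received siGLO, a transfection control, or siPds5b. Mutant mESCs, made with CRISPR-Cas9 edits at an exon of Pds5a or Pds5b, were Pds5b-KO with siGLO and Pds5a-KO with siGLO, siPds5b, siStag1 or siStag2. Pds5a-KO with siPds5b is called dual PDS5 depletion here. By the study's methods each knockout line was 1 clone, so effects of the clone and of the mutation cannot be told apart. The study calls its replicates biological, but no label ties the libraries of a condition to separate cultures, so p-values measure the spread between these libraries.

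Cohesin is a ring of proteins that holds sister chromatids together and extrudes loops of DNA. PDS5A and PDS5B are alternative accessory subunits that control its release from DNA, and STAG1 and STAG2 are a further pair of alternative subunits. The homeodomain is a DNA-binding fold, and it is present in the Lhx, Dlx, Irx, Barx, Nkx and Six-type proteins and, beside the paired domain, in some Pax proteins. In embryonic stem cells the promoters of most such genes lie in CpG islands and carry H3K27me3, the histone mark made by Polycomb repressive complex 2, and the genes are transcribed little until a lineage is chosen. Polycomb binding and chromatin marks were not analysed here.

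The libraries held between 17311090 and 23989198 counts. Pluripotency markers were abundant, with summed normalized counts of 77867 to 148646 per library over 8 markers. TMM scaling to a common library size of 19816922 gave the normalized counts used throughout. Against WT siGLO, 5 of the 8 markers were lower in each knockout and 6 in dual PDS5 depletion by edgeR at an adjusted p under 0.01. Libraries numbered 1 stood apart in several conditions, with summed trophoblast markers of 12549.5, 34394 and 33425 in Pds5a-KO siGLO replicates 1, 2 and 3 and of 12918, 32651 and 33505 in those of dual PDS5 depletion. Counts of called members without the libraries numbered 1 are therefore given as well, chosen after seeing the data. The siRNAs lowered their targets: the log2 fold change was -1.52 for Pds5b in WT siPds5b mESCs, -1.39 for Pds5b in dual PDS5 depletion, -2.08 for Stag1 and -1.90 for Stag2, the last 3 against Pds5a-KO siGLO. The log2 fold change of the Pds5b transcript was -3.01 in Pds5b-KO mESCs, and that of the Pds5a transcript -0.24 in Pds5a-KO siGLO mESCs (edgeR adjusted p = 0.0415), so the counts of Pds5a do not by themselves mark the Pds5a-KO libraries.

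Of the 48 members, 30 had enough counts to be tested and 18 did not. In each of the 18 untested members the highest count in any library was between 1 and 13, so only large differences between conditions could show at this depth. They were Dlx5, Dlx6, Irx6, Lhx3, Lhx4, Lhx5, Lhx8, Nkx2-1, Nkx2-2, Nkx2-3, Nkx2-6, Nkx3-2, Pax2, Pax4, Pax5, Pax7, Pax9 and Six3. Several of these had their highest mean in dual PDS5 depletion. Dlx5, a jaw and bone factor, had 7.99, 5.18 and 2.99 normalized counts there and at most 2.48 in a WT siGLO library. Pax9, a tooth and thymus factor, had 11.5, 6.22 and 6.98 against 0, 0 and 0.83 in WT siGLO mESCs. Six3, a forebrain and eye factor, had 11.5, 9.33 and 11 against 4.30, 1.13 and 0. These 3 were chosen after their values were seen, and no test was run on them.

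In WT siGLO mESCs the members were transcribed at low levels with a few exceptions. Per length of exon, levels above 1 RPKM were found for Nkx6-2 (5.02 RPKM), Nkx6-3 (4.31 RPKM), Six4 (3.43 RPKM), Six5 (2.14 RPKM) and Irx2 (1.39 RPKM), each a mean of 3 libraries, and the other members named here had means under 1 RPKM. Members with at least 10 normalized counts numbered 20 in every WT siGLO library, 18 to 20 in WT siPds5b mESCs, 20 to 23 in Pds5a-KO siGLO mESCs and 19 to 22 in Pds5b-KO siGLO mESCs. They numbered 24 to 26 in dual PDS5 depletion, 21 to 23 in Pds5a-KO siStag1 mESCs and 23 to 25 in Pds5a-KO siStag2 mESCs. The count in dual PDS5 depletion was thus above that of each of the other libraries except those of Pds5a-KO siStag2 mESCs, with which it overlapped.

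The promoters of the members were rich in CG dinucleotides. RefSeq promoter sequences (GRCm38.p6, the assembly of mm10) matched 34 of the 48 members, and the 250 bases before the start held a median of 15.5 CG in the members and 6 over 27018 genes. At least 10 CG were present in 79.4% of the matched members and in 38.2% of all promoters. CG was searched on the strand shown, and it reads the same on the other strand. The sequences below are the promoters of 2 members that rose, Barx1 and Dlx2, and of 2 that fell, Nkx1-2 and Nkx6-2, with CG in capitals.

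Barx1 (chr13:48662786-48662997, plus strand): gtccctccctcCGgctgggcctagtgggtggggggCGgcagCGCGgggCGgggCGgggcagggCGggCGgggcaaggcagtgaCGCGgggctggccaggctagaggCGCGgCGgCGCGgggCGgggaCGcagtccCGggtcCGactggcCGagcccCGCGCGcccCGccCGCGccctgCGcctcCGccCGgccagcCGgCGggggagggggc
Dlx2 (chr2:71546755-71547004, minus strand): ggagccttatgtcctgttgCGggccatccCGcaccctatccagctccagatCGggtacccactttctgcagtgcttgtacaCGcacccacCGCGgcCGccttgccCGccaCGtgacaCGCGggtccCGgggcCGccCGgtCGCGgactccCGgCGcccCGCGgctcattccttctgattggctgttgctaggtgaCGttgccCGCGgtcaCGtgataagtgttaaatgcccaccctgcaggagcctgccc
Nkx1-2 (chr7:132599638-132599887, minus strand): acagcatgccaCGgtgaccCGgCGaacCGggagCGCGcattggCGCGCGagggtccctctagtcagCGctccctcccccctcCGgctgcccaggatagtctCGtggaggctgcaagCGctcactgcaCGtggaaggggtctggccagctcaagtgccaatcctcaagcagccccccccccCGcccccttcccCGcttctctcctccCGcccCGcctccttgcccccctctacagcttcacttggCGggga
Nkx6-2 (chr7:139582798-139583047, minus strand): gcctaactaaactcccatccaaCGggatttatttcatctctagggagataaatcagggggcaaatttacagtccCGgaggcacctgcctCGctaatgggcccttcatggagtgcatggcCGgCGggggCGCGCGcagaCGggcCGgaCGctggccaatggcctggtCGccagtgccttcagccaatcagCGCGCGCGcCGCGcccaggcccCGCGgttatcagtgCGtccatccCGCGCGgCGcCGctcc

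The stretch of Barx1 ends before the gene start of the GENCODE annotation, at 212 bases, and holds 31 CG. The other stretches hold 24 CG (Dlx2), 19 CG (Nkx1-2) and 26 CG (Nkx6-2). Genes that rose and genes that fell both had promoters of this kind, and only the letters of the reference sequence were examined.

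More members differed from WT siGLO mESCs in dual PDS5 depletion than in any of the other conditions. Of the 30 tested members, 21 were called at an adjusted p under 0.01 in edgeR's quasi-likelihood test, 15 higher and 6 lower, where 32.0% of all tested genes were called, 17.4% higher and 14.6% lower. The median log2 fold change was 1.19 over the tested members and -0.0013 over all tested genes. The members called higher included Barx1, Barx2, Dlx1, Dlx2, Irx1, Irx4, Lhx2, Lhx9, Nkx2-5, Nkx2-9, Nkx6-1, Pax1 and Six4. Those that fell were Lhx1, Nkx1-2, Nkx6-2, Nkx6-3, Pax8 and Six5. A member can pass the filter on low counts through the condition in which it is high, so these counts cover tested members and not the 48. Dlx1 is such a member, with at least 10 normalized counts only in the 3 libraries of dual PDS5 depletion. Nkx6-1 is another, with at least 10 only in replicates 1 and 3 of dual PDS5 depletion and replicate 3 of Pds5a-KO siStag2. Barx2, Dlx2, Irx1, Irx4, Lhx9, Nkx6-1, Pax1 and Six6 reached 10 normalized counts only in mutant libraries. The calls of higher members and the medians against WT siGLO can therefore lean upward, and the part of the filter was not tested. Without the libraries numbered 1 the count of called members was 18. The RefSeq promoters of 11 of the members that rose held a median of 22 CG in 250 bases, and those of 5 of the members that fell a median of 19.

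In Pds5a-KO siGLO mESCs 11 members were called, 6 higher and 5 lower, against a background of 17.8% of tested genes (9.63% higher, 8.12% lower), and the median log2 fold change of the tested members was 0.45. In Pds5b-KO siGLO mESCs 10 were called, 8 higher and 2 lower, against 18.2% (9.64% higher, 8.57% lower), with a median of 0.74. That count was 5 without WT siGLO replicate 2, 6 without WT siGLO replicate 3, and 3, 6 and 5 without Pds5b-KO siGLO replicates 1, 2 and 3. With siStag1 in Pds5a-KO mESCs 11 members were called, 6 higher and 5 lower, against 20% (10.6% higher, 9.37% lower), with a median of 0.38. With siStag2 15 were called, 11 higher and 4 lower, against 30.1% (16.2% higher, 13.9% lower), with a median of 0.76. The median over all tested genes was 0.0021, -0.0029, 0.0012 and -0.0026 in these comparisons, in the same order. Without the libraries numbered 1 the counts were 11, 8, 11 and 12.

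These 5 comparisons share the WT siGLO libraries and are not independent. Side by side, Barx1 and Irx4 were called higher in each of the 5 and Nkx1-2 and Six5 lower in each, and no member was called in both directions. Of all tested genes, 3.13% were called higher in each of the 5, 2.21% lower in each and only 1.34% in both directions. At least 1 of the 5 comparisons called 22 of the 30 tested members and 48.7% of all tested genes. Dlx3, Dlx4, Irx2, Irx3, Irx5, Lhx6, Nkx2-4 and Six2 were called in none of them in the fit of all libraries, although Dlx3 and Irx5 were called under other settings given with their values.

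**Figure D1:**
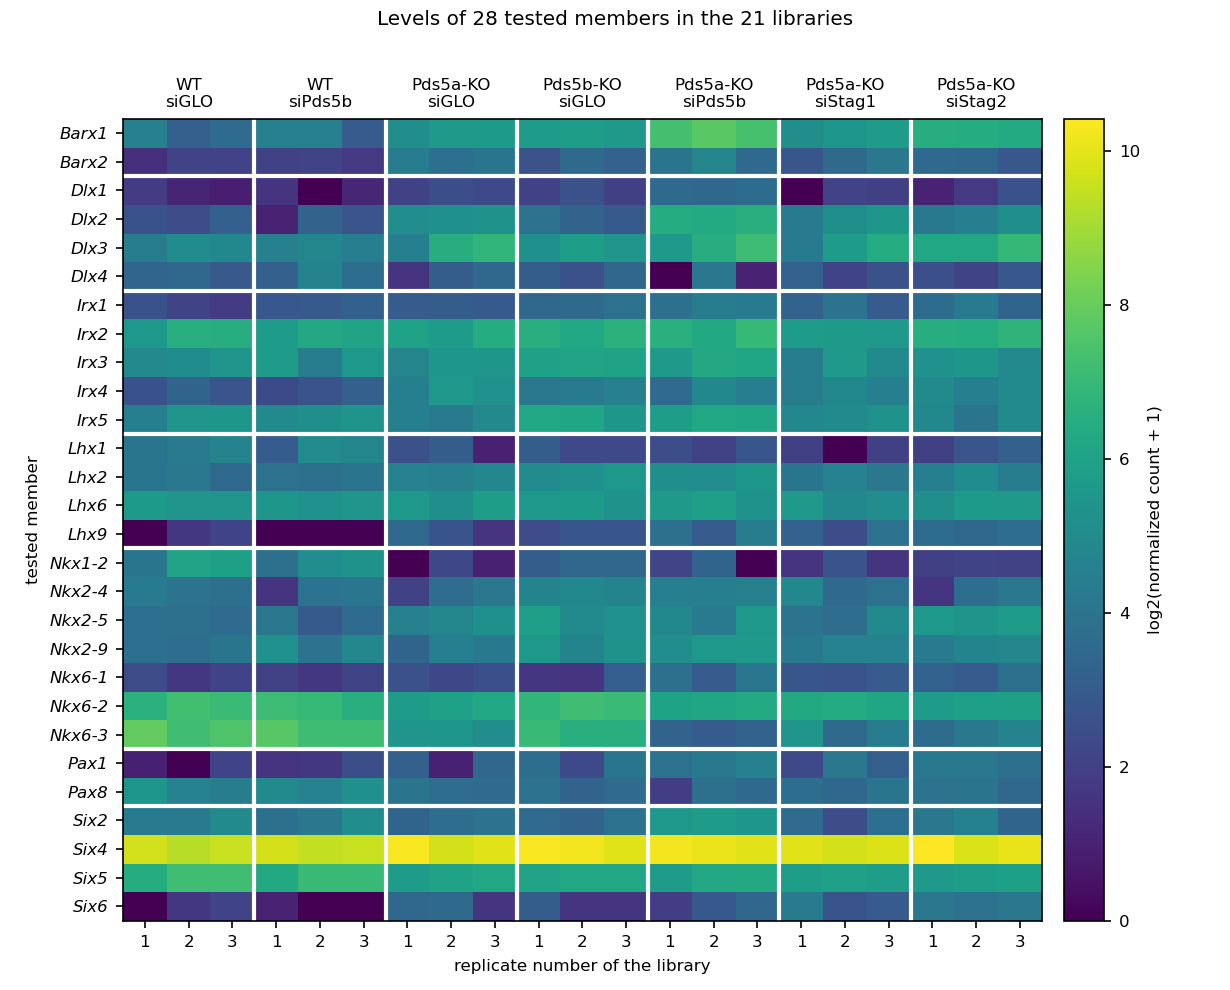
Level of 28 tested members (rows, grouped by family) in the 21 libraries (columns, grouped by condition), as log2 of the normalized count plus 1. Six4 is the row with the highest counts, and the columns of Pds5a-KO siPds5b show higher values for Barx1 and Dlx2 and lower values for Nkx6-3 than the WT columns.

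**Figure D2:**
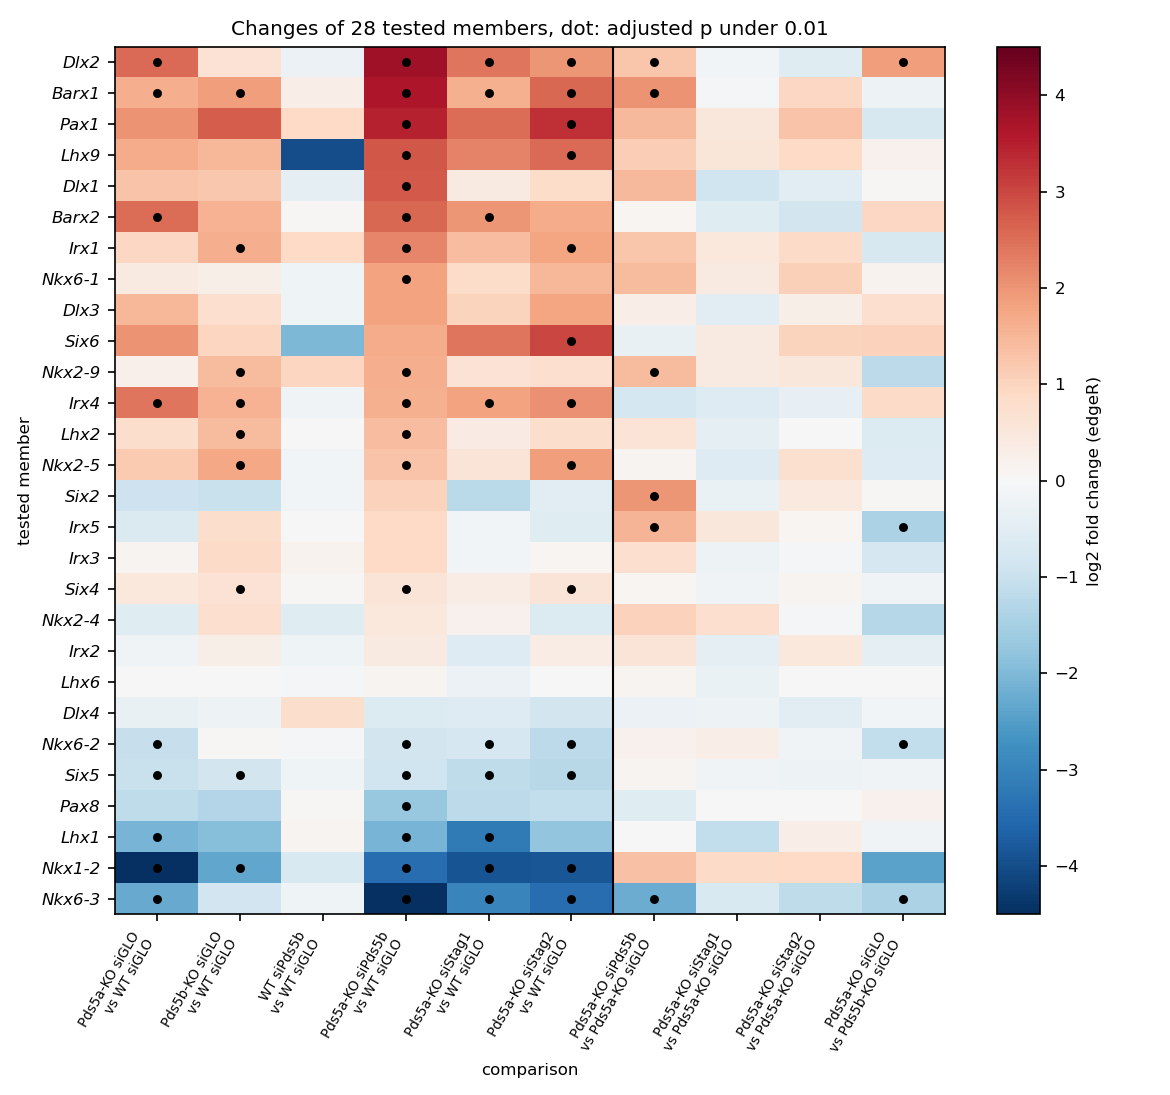
log2 fold change of 28 tested members (rows, in the order of their change in dual PDS5 depletion) in 10 comparisons (columns), with a black dot where the edgeR adjusted p was under 0.01. The 6 columns left of the line share the WT siGLO libraries, the next 3 columns are against Pds5a-KO siGLO, and the last one compares the knockouts. No dot stands in the columns of WT siPds5b, of siStag1 and of siStag2 within Pds5a-KO mESCs, and the dark blue cell of Lhx9 in WT siPds5b comes from libraries with no count.

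Six4, which acts with Eya proteins in muscle and kidney precursors, rose in Pds5b-KO mESCs, in dual PDS5 depletion and with siStag2, and Six5, a factor encoded beside the Dmpk gene of myotonic dystrophy, fell in each of the 5 mutant conditions. Six4 (chromosome 12, 73099609 to 73113456, minus strand, mm10) had 845, 627 and 739 normalized counts in WT siGLO mESCs, 851, 697 and 736 with siPds5b, 1256, 848 and 994 in Pds5a-KO siGLO mESCs and 1285, 1208 and 972 in Pds5b-KO siGLO mESCs. It had 1211, 1109 and 987 in dual PDS5 depletion, 995, 869 and 932 with siStag1 and 1366, 898 and 1067 with siStag2. All 15 mutant libraries lay above all 6 WT libraries except Pds5a-KO siGLO replicate 2, which WT siPds5b replicate 1 exceeded. Six4 had a log2 change of 0.64 (SE 0.16, edgeR adjusted p = 0.00399) in Pds5b-KO mESCs, 0.58 (adjusted p = 0.0051) in dual PDS5 depletion and 0.59 (adjusted p = 0.00473) with siStag2. In dual PDS5 depletion and with siStag2 it was not called by edgeR without the filter on low counts (adjusted p = 0.0135 and 0.0118). The 0.48 of Pds5a-KO siGLO mESCs (edgeR adjusted p = 0.0248) was not called, while a fit with the replicate number as a block called it (adjusted p = 0.000433) and also called Six4 with siStag1 (adjusted p = 0.00752, against 0.111 without the block). Without the libraries numbered 1 edgeR called Six4 in Pds5a-KO siGLO mESCs as well (adjusted p = 0.00996). Six4 missed the threshold in Pds5b-KO siGLO mESCs without WT siGLO replicate 2 or 3 or Pds5b-KO siGLO replicate 1 or 2 (adjusted p between 0.0164 and 0.0264), in dual PDS5 depletion without WT siGLO replicate 2 or 3 or Pds5a-KO siPds5b replicate 1 or 2 (adjusted p between 0.0188 and 0.0374) and in Pds5a-KO siStag2 mESCs without WT siGLO replicate 2 or 3 or Pds5a-KO siStag2 replicate 1 or 3 (adjusted p between 0.0128 and 0.0457).

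Six5 had 87.7, 149 and 146 normalized counts in WT siGLO mESCs, 78.5, 131 and 129 with siPds5b, 52.8, 62.7 and 75.2 in Pds5a-KO and 67.6, 72.8 and 73.8 in Pds5b-KO mESCs. It had 51.5, 76.7 and 78.7 in dual PDS5 depletion, 54.3, 61.1 and 56 with siStag1 and 47.8, 55 and 58.3 with siStag2. Every mutant library lay below every WT siGLO library, and the WT library numbered 1 was the lowest of the 3 under each siRNA. The log2 fold change was -1.0 in Pds5a-KO, -0.83 in Pds5b-KO, -0.89 in dual PDS5 depletion, -1.15 with siStag1 and -1.24 with siStag2 (edgeR adjusted p = 0.00162, 0.00651, 0.0023, 0.000394 and 0.000136). With only the conditions compared, edgeR did not call Six5 in Pds5a-KO siGLO mESCs or in dual PDS5 depletion (adjusted p = 0.0101 and 0.013). Six5 missed the threshold in Pds5a-KO siGLO mESCs without WT siGLO replicate 3 (adjusted p 0.0122), in Pds5b-KO siGLO mESCs without WT siGLO replicate 2 or 3 or Pds5b-KO siGLO replicate 1 or 2 or 3 (adjusted p between 0.0163 and 0.041) and in dual PDS5 depletion without WT siGLO replicate 2 or 3 or Pds5a-KO siPds5b replicate 1 (adjusted p between 0.0137 and 0.017).

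Six2, which maintains nephron progenitors, had its highest level in dual PDS5 depletion and its lowest levels in the single knockouts and with siStag1. It had 18.9, 18 and 30.6 normalized counts in WT siGLO mESCs, 13.2, 16.7 and 33.3 with siPds5b, 9.14, 12.2 and 14.5 in Pds5a-KO and 11.6, 8.97 and 13.6 in Pds5b-KO mESCs. It had 46.2, 52.9 and 42.9 in dual PDS5 depletion, 11.6, 4.44 and 12.8 with siStag1 and 16.6, 22.9 and 9.20 with siStag2. The 3 libraries of dual PDS5 depletion were the highest of the 21, while the single knockouts were below WT siGLO. No comparison with WT siGLO called it, with log2 fold changes of -0.92 (adjusted p = 0.0906) in Pds5a-KO, -0.99 (adjusted p = 0.0662) in Pds5b-KO and 1.05 (adjusted p = 0.0163) in dual PDS5 depletion by edgeR. Against Pds5a-KO siGLO it rose with siPds5b by 1.97 (SE 0.38, adjusted p = 0.000816) on the log2 scale by edgeR. Six6, an eye and pituitary factor, had 0 to 3.31 normalized counts in WT siGLO mESCs and 16.6, 13.8 and 16.4 with siStag2 in Pds5a-KO mESCs, the 1 comparison that called it. It had 10.2, 11.2 and 1.93 in Pds5a-KO siGLO and 7.39, 1.99 and 1.94 in Pds5b-KO siGLO mESCs. In dual PDS5 depletion it had 2.66, 6.22 and 9.97, and with siStag1 18.4, 5.56 and 6.88, the first of these the highest of the 21 libraries. Its summed counts with siStag2 were 8.51 times (exact 95% counting interval 3.62 to 24.4) those of WT siGLO. Six6 missed the threshold in Pds5a-KO siStag2 mESCs without WT siGLO replicate 1 (adjusted p 0.0176). Six6 was also not called there by edgeR without all libraries numbered 1 (adjusted p = 0.0176). Its exons share 192 bases with 4930447C04Rik on the opposite strand, which rose too (edgeR log2 fold change 0.90, adjusted p = 0.000313), and without knowledge of strand in the counting the reads of both cannot be told apart.

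Both Barx genes and Dlx2 rose, and in dual PDS5 depletion Dlx2 and Barx1 had the largest fitted increases of the 30 tested members. Barx1, a factor of stomach mesenchyme and teeth, lies on chromosome 13 (48662998 to 48666507, plus strand, mm10). It had 22.3, 7.89 and 11.6 normalized counts in WT siGLO mESCs and 22.4, 22.3 and 6.89 with siPds5b. It had 34.5, 48.6 and 50.1 in Pds5a-KO siGLO mESCs and 52.8, 56.8 and 47.6 in Pds5b-KO siGLO mESCs. It had 161, 213 and 166 in dual PDS5 depletion, 34.9, 43.3 and 51.1 with siStag1 and 89.8, 86 and 81.8 with siStag2. Mutant libraries did not overlap with WT libraries, and dual PDS5 depletion did not overlap with any other condition. Barx1 rose by 1.63 (SE 0.32, adjusted p = 0.0005) on the log2 scale in Pds5a-KO, by 1.87 (SE 0.32, adjusted p = 0.000109) in Pds5b-KO and by 3.64 (SE 0.30, adjusted p = 1.03e-09) in dual PDS5 depletion by edgeR. siPds5b within Pds5a-KO mESCs raised it by 2.01 (SE 0.26, adjusted p = 8.2e-06), and in WT mESCs the log2 difference with siPds5b was 0.28 (SE 0.37, adjusted p = 1). The difference between these effects of siPds5b, the interaction, was 1.73 (SE 0.46, adjusted p = 0.0305) by edgeR and was not called, while DESeq2 gave an adjusted p of 0.00319 and called it.

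Barx2, which acts in muscle and skin, had 1.72, 3.38 and 3.31 normalized counts in WT siGLO mESCs, 3.06, 3.35 and 2.30 with siPds5b, 20.3, 13.1 and 15.4 in Pds5a-KO and 5.28, 11 and 8.74 in Pds5b-KO mESCs. It had 15.1, 25.9 and 11 in dual PDS5 depletion, 5.81, 11.1 and 16.7 with siStag1 and 10.7, 10.3 and 6.13 with siStag2. No mutant library reached down to a WT library, at counts that were low in all conditions. Its summed counts were 5.86 times (exact 95% counting interval 2.85 to 13.6) those of WT siGLO in Pds5a-KO siGLO mESCs, 6.21 times (exact 95% counting interval 3.03 to 14.3) in dual PDS5 depletion and 3.04 times (exact 95% counting interval 1.37 to 7.40) in Pds5b-KO mESCs, where it was not called (edgeR adjusted p = 0.0421). Counting intervals cover counting error only. Barx2 missed the threshold in Pds5a-KO siStag1 mESCs without WT siGLO replicate 1 or 2 or 3 or Pds5a-KO siStag1 replicate 2 or 3 (adjusted p between 0.0185 and 0.0735). That call was also lost by DESeq2 (adjusted p = 0.0127) and by edgeR without the filter (0.0113) and without the libraries numbered 1 (0.0237). Without those libraries the Pds5a-KO siGLO call was lost too (edgeR adjusted p = 0.0212).

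Dlx1 and Dlx2, neighbours on chromosome 2 with 9.426 kb between them, direct the development of forebrain interneurons. Dlx2 had 5.16, 4.51 and 8.27 normalized counts in WT siGLO mESCs, 1.02, 8.93 and 5.74 with siPds5b, 33.5, 36.5 and 38.6 in Pds5a-KO and 13.7, 8.97 and 6.79 in Pds5b-KO mESCs. It had 85.2, 81.9 and 92.7 in dual PDS5 depletion, 18.4, 35.6 and 45.2 with siStag1 and 17.6, 20.6 and 35.8 with siStag2. Pds5a-KO libraries lay above WT with each siRNA, dual PDS5 depletion lay above every other condition, and Pds5b-KO overlapped with WT. The log2 fold change against WT siGLO was 2.55 (SE 0.43, adjusted p = 8.56e-05) in Pds5a-KO, 0.67 (SE 0.51, adjusted p = 0.332) in Pds5b-KO and 3.80 (SE 0.40, adjusted p = 5.62e-08) in dual PDS5 depletion by edgeR. The summed counts in dual PDS5 depletion were 14.1 times (exact 95% counting interval 8.96 to 23.5) those of WT siGLO. Dlx2 was higher in Pds5a-KO than in Pds5b-KO siGLO mESCs by 1.88 (SE 0.40, adjusted p = 0.00101) on the log2 scale by edgeR. siPds5b within Pds5a-KO mESCs raised it by 1.26 (SE 0.32, adjusted p = 0.00852), a call that was lost without any 1 of the 6 libraries compared (adjusted p between 0.0198 and 0.0355). Dlx2 missed the threshold in Pds5a-KO siStag2 mESCs without Pds5a-KO siStag2 replicate 3 (adjusted p 0.0115).

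Dlx1 was rarer, with 2.58, 1.13 and 0.83 normalized counts in WT siGLO mESCs, 2.04, 0 and 1.15 with siPds5b, 3.05, 4.68 and 3.86 in Pds5a-KO and 3.17, 4.98 and 2.91 in Pds5b-KO mESCs. It had 10.7, 10.4 and 12 in dual PDS5 depletion, 0, 3.33 and 2.95 with siStag1 and 0.98, 2.29 and 5.11 with siStag2. Its libraries of dual PDS5 depletion stood above the other 18. There its summed counts were 7.17 times (exact 95% counting interval 2.79 to 23.5) those of WT siGLO. Since Dlx1 passed the filter on low counts through this condition alone, the difference is given as a description. Dlx1 shares 335 exon bases with Dlx1as on the opposite strand, which had 0 to 3 counts per library.

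Dlx3, a factor of placenta and skin, was the Dlx gene with the highest mean count. It had 20.6, 31.5 and 28.1 normalized counts in WT siGLO mESCs, 22.4, 26.8 and 20.7 with siPds5b, 21.3, 88.9 and 116 in Pds5a-KO and 37, 54.8 and 41.7 in Pds5b-KO mESCs. It had 48.8, 89.2 and 141 in dual PDS5 depletion, 19.4, 52.2 and 87.5 with siStag1 and 75.2, 73.4 and 123 with siStag2. Replicate 1 was far below replicates 2 and 3 in Pds5a-KO mESCs with siGLO and with siStag1, near the lowest WT siGLO value, and it was also the lowest with siPds5b. In the fit of all libraries no comparison called Dlx3, with log2 fold changes of 1.51 (adjusted p = 0.048) in Pds5a-KO, 1.80 (adjusted p = 0.0121) in dual PDS5 depletion and 1.76 (adjusted p = 0.0145) with siStag2 by edgeR. Without Pds5a-KO siGLO replicate 1 the adjusted p in Pds5a-KO was 0.00304, and without replicate 1 of dual PDS5 depletion the adjusted p there was 0.00504, both past the threshold. The replicate block called Dlx3 in Pds5a-KO siGLO mESCs (adjusted p = 0.00419), in dual PDS5 depletion (0.000309) and with siStag2 (0.000289). Without the libraries numbered 1 the adjusted p was 0.000213, 3.94e-05 and 0.00025 in the same order and 0.00714 with siStag1. DESeq2 (0.00478 and 0.0064) and edgeR with only the conditions compared (0.00284 and 7.03e-05) called it in dual PDS5 depletion and with siStag2. The call of Dlx3 thus depended on the setting. Trophoblast markers moved in the same libraries: the 7 markers reached summed normalized counts of 3521, 3501 and 3614 with WT siGLO, 12549.5, 34394 and 33425 in Pds5a-KO siGLO mESCs, 5576, 9422 and 9866 in Pds5b-KO siGLO mESCs and 12918, 32651 and 33505 in dual PDS5 depletion. With siStag1 the sums were 9184, 21653 and 22706, and with siStag2 23033, 26922 and 27635. In Pds5a-KO siGLO mESCs 6 of the 6 tested trophoblast markers rose, among them Hand1 (log2 fold change 3.50, adjusted p = 2.22e-10) and Krt18 (3.31, adjusted p = 0.000112) by edgeR, while the untested Elf5 had 0 to 6 counts per library. Their part in the level of Dlx3 was not tested, and in bulk RNA more cells of a type and more RNA per cell cannot be told apart. Dlx4, 15.15 kb from Dlx3, had between 0 and 24.6 normalized counts and was called in no comparison.

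Of the Irx (Iroquois) genes, which pattern the neural tube, limb and heart, Irx1 and Irx4 rose and Irx2, Irx3 and Irx5 were called in no comparison with WT siGLO. Irx4, a ventricular heart factor, had 5.16, 9.01 and 5.79 normalized counts in WT siGLO mESCs, 4.08, 5.58 and 8.04 with siPds5b, 21.3, 45.8 and 37.6 in Pds5a-KO and 16.9, 18.9 and 22.3 in Pds5b-KO mESCs. It had 11.5, 28 and 20.9 in dual PDS5 depletion, 20.4, 27.8 and 21.6 with siStag1 and 30.3, 21.8 and 29.6 with siStag2. Each mutant library was above each WT library, and the Pds5a-KO siGLO libraries held the highest mean. By edgeR its log2 fold change was 2.41 (SE 0.39, adjusted p = 5.7e-05) in Pds5a-KO, 1.56 (SE 0.41, adjusted p = 0.00619) in Pds5b-KO and 1.60 (SE 0.41, adjusted p = 0.00286) in dual PDS5 depletion by edgeR. Irx4 missed the threshold in Pds5b-KO siGLO mESCs without WT siGLO replicate 1 or 3 or Pds5b-KO siGLO replicate 1 or 2 or 3 (adjusted p between 0.0102 and 0.0291) and in dual PDS5 depletion without WT siGLO replicate 1 or 3 or Pds5a-KO siPds5b replicate 2 (adjusted p between 0.0154 and 0.026). The Pds5b-KO call was also lost without the libraries numbered 1 (edgeR adjusted p = 0.0192). The dual PDS5 depletion call was lost with only the conditions compared (edgeR adjusted p = 0.0143).

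Irx1 had 5.16, 3.38 and 2.48 normalized counts in WT siGLO mESCs, 6.11, 6.70 and 8.04 with siPds5b, 7.11, 7.48 and 6.75 in Pds5a-KO and 10.6, 11 and 13.6 in Pds5b-KO mESCs. It had 13.3, 19.7 and 18.9 in dual PDS5 depletion, 8.72, 14.5 and 6.88 with siStag1 and 11.7, 18.3 and 9.20 with siStag2. Dual PDS5 depletion lay above all WT libraries, and WT siPds5b overlapped with Pds5a-KO siGLO. It was called higher in Pds5b-KO mESCs (1.64, adjusted p = 0.00888), in dual PDS5 depletion (2.19, adjusted p = 0.000249) and with siStag2 (1.78, adjusted p = 0.00285), log2 fold changes from edgeR. Irx1 missed the threshold in Pds5b-KO siGLO mESCs without any 1 of the 6 libraries compared (adjusted p between 0.0111 and 0.0498) and in Pds5a-KO siStag2 mESCs without WT siGLO replicate 2 or 3 or Pds5a-KO siStag2 replicate 2 (adjusted p between 0.0114 and 0.0234). The Pds5b-KO call was also lost by DESeq2 (adjusted p = 0.0192). By edgeR it was lost without the filter (adjusted p = 0.0172), with only the conditions compared (0.0221) and without the libraries numbered 1 (0.0275). The siStag2 call was lost without those libraries (edgeR adjusted p = 0.0136). Irx2, 665.1 kb from Irx1 and the Irx gene with the highest mean count, had 45.5, 93.5 and 88.5 in WT siGLO mESCs, 53, 77 and 67.7 with siPds5b, 63, 52.4 and 85.8 in Pds5a-KO, 92.9, 74.8 and 102 in Pds5b-KO and 97.7, 79.8 and 124 in dual PDS5 depletion. With siStag1 it had 52.3, 50.0 and 49.2 and with siStag2 87.8, 86 and 108. Each condition overlapped with WT siGLO, and its smallest adjusted p in any comparison was 0.0851.

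Irx5, a heart and retina factor, and Irx3 lie 555.6 kb apart on chromosome 8. Irx5 had 21.5, 41.7 and 44.7 normalized counts in WT siGLO mESCs, 29.6, 35.7 and 41.3 with siPds5b, 21.3, 18.7 and 28.9 in Pds5a-KO and 71.8, 70.8 and 44.7 in Pds5b-KO mESCs. It had 56.8, 74.6 and 68.8 in dual PDS5 depletion, 28.1, 31.1 and 38.3 with siStag1 and 28.3, 14.9 and 29.6 with siStag2. Pds5a-KO siGLO libraries were below those of Pds5b-KO and of dual PDS5 depletion without overlap, and WT siGLO overlapped with Pds5a-KO. The log2 ratio of Irx5 in Pds5a-KO over Pds5b-KO siGLO mESCs was -1.43 (SE 0.30, adjusted p = 0.000776) by edgeR. siPds5b raised it within Pds5a-KO mESCs by 1.53 (SE 0.30, adjusted p = 0.000838), but dual PDS5 depletion against WT siGLO gave 0.89 (SE 0.28, adjusted p = 0.0116) and was called without WT siGLO replicate 3 (adjusted p 0.00953), with the replicate block (adjusted p 0.0072) and by DESeq2 (adjusted p 0.00785). Irx3 had between 20.1 and 77.7 normalized counts in the 21 libraries and was not called.

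Genes of chromosome 8 differed together between the lines. The 729 tested genes of that chromosome had a median log2 fold change of -0.20 in Pds5a-KO siGLO mESCs and 0.30 in Pds5b-KO siGLO mESCs against WT siGLO, and of -0.48 between the knockouts, where 55.0% of them were called against 17.4% elsewhere. Within Pds5a-KO mESCs siPds5b gave a median of -0.04 on chromosome 8. Irx3, Irx5, Irx6 and Nkx6-3 lie on this chromosome, and the part of its shift in their values was not tested.

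Lhx proteins join LIM domains to a homeodomain and work with the cofactor LDB1. Lhx2, needed for forebrain and eye, rose, and Lhx1, a head organizer and kidney factor, fell. Lhx2 had 15.5, 16.9 and 10.8 normalized counts in WT siGLO mESCs, 14.3, 13.4 and 14.9 with siPds5b, 23.4, 22.5 and 28 in Pds5a-KO and 31.7, 36.9 and 45.6 in Pds5b-KO mESCs. It had 35.5, 33.2 and 44.9 in dual PDS5 depletion, 15.5, 23.3 and 16.7 with siStag1 and 21.5, 32.1 and 20.4 with siStag2. Pds5a-KO siGLO, Pds5b-KO, dual PDS5 depletion and siStag2 libraries lay above all WT libraries, while siStag1 overlapped with WT. Lhx2 was called in Pds5b-KO and dual PDS5 depletion, with a log2 change of 1.42 (SE 0.29, edgeR adjusted p = 0.000617) and 1.40 (SE 0.29, adjusted p = 0.000315). It was not called in Pds5a-KO siGLO mESCs (0.79, adjusted p = 0.0504) or with siStag2 (0.78, adjusted p = 0.0383). The direct difference between the knockouts was -0.63 (adjusted p = 0.0744) by edgeR and was not called.

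Lhx1 had 15.5, 19.2 and 24 normalized counts in WT siGLO mESCs, 7.13, 31.3 and 26.4 with siPds5b, 5.08, 7.48 and 0.96 in Pds5a-KO and 7.39, 3.99 and 3.88 in Pds5b-KO mESCs. It had 4.44, 3.11 and 5.98 in dual PDS5 depletion, 2.91, 0 and 2.95 with siStag1 and 2.93, 5.73 and 8.18 with siStag2. All mutant libraries were below the WT siGLO libraries, and WT siPds5b replicate 1 lay among the mutant values. The summed counts were 0.231 times (exact 95% counting interval 0.119 to 0.415) those of WT siGLO in dual PDS5 depletion and 0.104 times (exact 95% counting interval 0.0367 to 0.238) with siStag1 (edgeR adjusted p = 0.00521 and 0.000799). Lhx1 missed the threshold in Pds5a-KO siGLO mESCs without any 1 of the 6 libraries compared (adjusted p between 0.0105 and 0.0539) and in dual PDS5 depletion without WT siGLO replicate 2 or 3 or Pds5a-KO siPds5b replicate 1 or 2 or 3 (adjusted p between 0.011 and 0.027). The Pds5a-KO siGLO call was also lost by edgeR without the filter (adjusted p = 0.0103) and with only the conditions compared (0.0129). In Pds5b-KO mESCs the edgeR adjusted p of Lhx1 was 0.0129 and it was not called. There the adjusted p was 0.00987 with the replicate block, 0.00422 with only the conditions compared and 0.00843 without the libraries numbered 1. Lhx9, a gonad and limb factor, had 0, 2.25 and 3.31 in WT siGLO mESCs, 0 in each WT siPds5b library and 13.3, 7.26 and 19.9 in dual PDS5 depletion, 7.38 times (exact 95% counting interval 3.12 to 21.2) the summed counts of WT siGLO (edgeR adjusted p = 0.00241). It had 11.2, 5.61 and 1.93 in Pds5a-KO siGLO and 4.22, 5.98 and 5.82 in Pds5b-KO siGLO mESCs. With siStag1 it had 8.72, 4.44 and 13.8 and with siStag2 11.7, 10.3 and 12.3. Pds5a-KO mESCs with siGLO, siStag1 and siStag2 each overlapped with dual PDS5 depletion. Lhx9 missed the threshold in dual PDS5 depletion without WT siGLO replicate 1 or Pds5a-KO siPds5b replicate 3 (adjusted p between 0.0171 and 0.0177) and in Pds5a-KO siStag2 mESCs without WT siGLO replicate 1 or 2 or Pds5a-KO siStag2 replicate 1 or 2 or 3 (adjusted p between 0.0118 and 0.0382). Both calls were lost without the libraries numbered 1 (edgeR adjusted p = 0.0251 and 0.065). Lhx6, an interneuron factor and the Lhx gene with the highest mean count, had 49.8, 41.7 and 42.2 in WT siGLO mESCs, 44.8, 38 and 42.5 with siPds5b, 45.7, 35.5 and 54 in Pds5a-KO, 46.5, 50.9 and 38.8 in Pds5b-KO and 48, 58.1 and 39.9 in dual PDS5 depletion. With siStag1 it had 48.5, 27.8 and 33.4 and with siStag2 35.1, 50.4 and 47. Its levels overlapped between all conditions, with a log2 fold change of 0.12 (SE 0.24, edgeR adjusted p = 0.708) in dual PDS5 depletion.

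Of the Nkx genes, Nkx1-2, Nkx6-2 and Nkx6-3 fell and Nkx2-5, Nkx2-9 and Nkx6-1 rose in dual PDS5 depletion. Nkx6-3, a factor of stomach endocrine cells, had the largest decrease of the 30 tested members in dual PDS5 depletion. It had 239, 148 and 187 normalized counts in WT siGLO mESCs and 208, 145 and 146 with siPds5b. It had 41.7, 43 and 33.7 in Pds5a-KO siGLO mESCs and 129.8, 93.7 and 94.2 in Pds5b-KO siGLO mESCs. It had 8.88, 7.26 and 8.97 in dual PDS5 depletion, 41.7, 11.1 and 19.7 with siStag1 and 11.7, 17.2 and 24.5 with siStag2. All mutant libraries lay below all WT libraries, Pds5b-KO stood between WT and Pds5a-KO, and dual PDS5 depletion was the lowest. Its edgeR log2 fold change was -2.28 (SE 0.28, adjusted p = 2.12e-06) in Pds5a-KO, -0.86 (SE 0.26, adjusted p = 0.0139) in Pds5b-KO and -4.49 (SE 0.35, adjusted p = 5.83e-10) in dual PDS5 depletion by edgeR. In Pds5b-KO the adjusted p was 0.00266 with the replicate block, 0.00928 by DESeq2, 0.00411 with only the conditions compared and 0.00569 without the libraries numbered 1. Each of these was past the threshold. Between the knockouts the edgeR log2 difference was -1.42 (SE 0.29, adjusted p = 0.000682), beside the chromosome 8 median of -0.48. siPds5b within Pds5a-KO mESCs lowered it further, with a log2 fold change of -2.22 (SE 0.40, adjusted p = 0.000423), and in WT mESCs the log2 difference was -0.20 (SE 0.25, adjusted p = 1). The interaction was -2.01 (SE 0.48, adjusted p = 0.0155) by edgeR, not called. Its adjusted p was 0.00938 without WT siGLO replicate 1, 0.00243 with the replicate block, 0.00763 with only the conditions compared, 0.00783 without the libraries numbered 1 and 0.00166 by DESeq2, each past the threshold.

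Nkx6-2, which acts in oligodendrocytes and the ventral neural tube, had 99.7, 153 and 135 normalized counts in WT siGLO mESCs, 139.6, 125 and 94.1 with siPds5b, 53.8, 60.8 and 73.3 in Pds5a-KO and 115, 148 and 138 in Pds5b-KO mESCs. It had 65.7, 69.5 and 80.7 in dual PDS5 depletion, 78.5, 84.5 and 67.8 with siStag1 and 52.7, 57.3 and 59.3 with siStag2. All 12 libraries of the Pds5a-KO line were below all 9 WT and Pds5b-KO libraries. Against WT siGLO its log2 fold change was -1.04 (SE 0.19, adjusted p = 0.000237) in Pds5a-KO and 0.05 (SE 0.18, adjusted p = 0.847) in Pds5b-KO by edgeR, and the knockouts differed directly by -1.09 (SE 0.19, adjusted p = 0.00014). Within Pds5a-KO mESCs the log2 difference with siPds5b was 0.20 (adjusted p = 0.547) by edgeR. Nkx6-2 missed the threshold in Pds5a-KO siStag1 mESCs without WT siGLO replicate 2 or 3 or Pds5a-KO siStag1 replicate 1 or 3 (adjusted p between 0.0108 and 0.0272). That call was also lost with only the conditions compared (edgeR adjusted p = 0.0114). Nkx6-2 shares 246 exon bases with Inpp5a on the opposite strand, which rose (0.53, adjusted p = 9.21e-05 in Pds5a-KO and 0.46, adjusted p = 0.000164 in dual PDS5 depletion, log2 fold changes from edgeR).

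Nkx1-2, a factor of the caudal neural plate and tailbud, had 15.5, 66.5 and 59.5 normalized counts in WT siGLO mESCs, 13.2, 33.5 and 40.2 with siPds5b, 0, 3.74 and 0.96 in Pds5a-KO and 7.39, 9.97 and 9.71 in Pds5b-KO mESCs. It had 3.55, 9.33 and 0 in dual PDS5 depletion, 1.94, 5.56 and 1.97 with siStag1 and 2.93, 3.44 and 3.07 with siStag2. Every mutant library was below every WT library, although the WT libraries numbered 1 were well below those numbered 2 and 3. Its summed counts were 0.0354 times (exact 95% counting interval 0.0113 to 0.0845) those of WT siGLO in Pds5a-KO, 0.198 times (exact 95% counting interval 0.126 to 0.3) in Pds5b-KO and 0.0919 times (exact 95% counting interval 0.0478 to 0.162) in dual PDS5 depletion (edgeR adjusted p = 5.77e-05, 0.0036 and 0.000162). Nkx1-2 missed the threshold in Pds5b-KO siGLO mESCs without WT siGLO replicate 2 or 3 or Pds5b-KO siGLO replicate 1 or 2 or 3 (adjusted p between 0.0126 and 0.022). The 8 mesoderm and primitive streak markers summed to 502, 1071 and 1264 in WT siGLO mESCs, lowest in replicate 1 as well, and to between 294.6 and 446 per library in the mutant conditions. Of the 7 tested markers of that list 1 was called lower in each knockout, Eomes, with log2 fold changes of -1.25 (adjusted p = 0.000507) and -0.99 (adjusted p = 0.00329) by edgeR, and their part in the values of Nkx1-2 was not tested. The gene body of Nkx1-2 overlaps that of Fgfr2 on the same strand with no shared exon bases, and Fgfr2 rose by 2.75 (adjusted p = 7.88e-10) on the log2 scale in Pds5a-KO by edgeR.

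Nkx2-9, expressed in the ventral neural tube, had 12.9, 12.4 and 15.7 normalized counts in WT siGLO mESCs, 37.7, 14.5 and 27.6 with siPds5b, 9.14, 21.5 and 17.4 in Pds5a-KO and 45.4, 24.9 and 39.8 in Pds5b-KO mESCs. It had 33.7, 46.7 and 48.8 in dual PDS5 depletion, 17.4, 23.3 and 23.6 with siStag1 and 18.5, 25.2 and 25.6 with siStag2. Its values in WT siPds5b mESCs reached those of Pds5b-KO mESCs, so these groups overlapped. It rose by 1.41 (adjusted p = 0.00383) in Pds5b-KO, by 1.63 (adjusted p = 0.000462) in dual PDS5 depletion and by 1.41 (adjusted p = 0.00578) with siPds5b within Pds5a-KO mESCs, on the log2 scale by edgeR. Nkx2-9 missed the threshold in Pds5b-KO siGLO mESCs without WT siGLO replicate 1 or 2 or Pds5b-KO siGLO replicate 1 or 3 (adjusted p between 0.0118 and 0.023) and with siPds5b within Pds5a-KO mESCs without Pds5a-KO siGLO replicate 1 or 3 or Pds5a-KO siPds5b replicate 2 or 3 (adjusted p between 0.0153 and 0.04). Both calls were lost without the libraries numbered 1 (edgeR adjusted p = 0.0281 and 0.0163). The siPds5b call within Pds5a-KO mESCs was lost with only the conditions compared (edgeR adjusted p = 0.0277).

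Nkx2-5, the early heart factor, had 12.9, 13.5 and 11.6 normalized counts in WT siGLO mESCs, 16.3, 6.70 and 11.5 with siPds5b, 22.4, 26.2 and 36.6 in Pds5a-KO and 58.1, 30.9 and 37.9 in Pds5b-KO mESCs. It had 28.4, 18.7 and 45.9 in dual PDS5 depletion, 14.5, 12.2 and 29.5 with siStag1 and 45.9, 41.3 and 53.1 with siStag2. Pds5b-KO mESCs and Pds5a-KO siStag2 mESCs lay furthest above WT, with log2 fold changes of 1.73 (adjusted p = 0.00133) and 1.88 (adjusted p = 0.000316) by edgeR, and dual PDS5 depletion gave 1.29 (adjusted p = 0.00908). Nkx2-5 missed the threshold in Pds5b-KO siGLO mESCs without Pds5b-KO siGLO replicate 1 (adjusted p 0.0129) and in dual PDS5 depletion without WT siGLO replicate 1 or 2 or 3 or Pds5a-KO siPds5b replicate 1 or 3 (adjusted p between 0.0152 and 0.0917). By edgeR both calls were lost without the libraries numbered 1 (adjusted p = 0.0239 and 0.0225). The dual PDS5 depletion call was lost with only the conditions compared (edgeR adjusted p = 0.0172). Nkx6-1, a factor of beta cells and motor neurons, had 1.99 to 7.77 normalized counts in the WT, Pds5a-KO siGLO and Pds5b-KO siGLO libraries. It had 5.81, 5.56 and 6.88 with siStag1, 8.78, 6.88 and 13.3 with siStag2 and 13.3, 7.26 and 16 in dual PDS5 depletion. The siStag2 and dual PDS5 depletion libraries overlapped. In dual PDS5 depletion its summed counts were 3.64 times (exact 95% counting interval 1.82 to 7.90) those of WT siGLO (edgeR adjusted p = 0.00554). Since Nkx6-1 passed the filter on low counts through libraries in which it was high, the difference and its p-values are given as a description. Nkx6-1 missed the threshold in dual PDS5 depletion without WT siGLO replicate 1 or 2 or 3 or Pds5a-KO siPds5b replicate 1 or 3 (adjusted p between 0.012 and 0.0337). That call was also lost by DESeq2 (adjusted p = 0.016) and by edgeR without the filter (0.0138) and without the libraries numbered 1 (0.0376). Nkx2-4 had 1.95 to 28.1 normalized counts and was not called.

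Only 2 of the 7 Pax genes, Pax1 and Pax8, had enough counts to be tested, and they moved in opposite directions. Pax1, a factor of the sclerotome and thymus, had 0.86, 0 and 3.31 normalized counts in WT siGLO mESCs, 2.04, 2.23 and 4.59 with siPds5b, 8.13, 0.94 and 10.6 in Pds5a-KO and 12.7, 3.99 and 15.5 in Pds5b-KO mESCs. It had 14.2, 17.6 and 22.9 in dual PDS5 depletion, 3.88, 16.7 and 7.87 with siStag1 and 17.6, 17.2 and 13.3 with siStag2. Dual PDS5 depletion and siStag2 stood above all WT libraries, at 11.8 times (exact 95% counting interval 4.77 to 37.8) and 10.4 times (exact 95% counting interval 4.16 to 33.6) the summed counts of WT siGLO (edgeR adjusted p = 0.000495 and 0.00116). The siStag2 call was lost without the libraries numbered 1 (edgeR adjusted p = 0.0185). In Pds5b-KO mESCs the adjusted p was 0.0119, and it was between 0.00694 and 0.00963 without WT siGLO replicate 3 or Pds5b-KO siGLO replicate 2, 0.00869 with the replicate block and 0.00639 by DESeq2. Pax1 shares 183 exon bases with AI646519 on the opposite strand, which had 0 to 3 counts per library. Pax8, a thyroid and kidney factor and the Pax gene with the highest mean count, had 43, 23.7 and 19.9 in WT siGLO mESCs, 29.6, 23.4 and 36.7 with siPds5b, 15.2, 12.2 and 11.6 in Pds5a-KO and 13.7, 8.97 and 11.7 in Pds5b-KO mESCs. It had 2.66, 13.5 and 11 in dual PDS5 depletion, 12.6, 10.0 and 15.7 with siStag1 and 14.6, 14.9 and 10.2 with siStag2. All mutant libraries lay below all WT libraries, and Pax8 was called in dual PDS5 depletion, with a log2 change of -1.70 (SE 0.42, edgeR adjusted p = 0.00184). Pax8 missed the threshold in dual PDS5 depletion without WT siGLO replicate 1 or Pds5a-KO siPds5b replicate 1 (adjusted p between 0.0147 and 0.0252). Without all libraries numbered 1 the log2 change there was -0.82 (edgeR adjusted p = 0.152) and was not called. With only the conditions compared the call was lost as well (edgeR adjusted p = 0.0173).

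**Figure D3:**
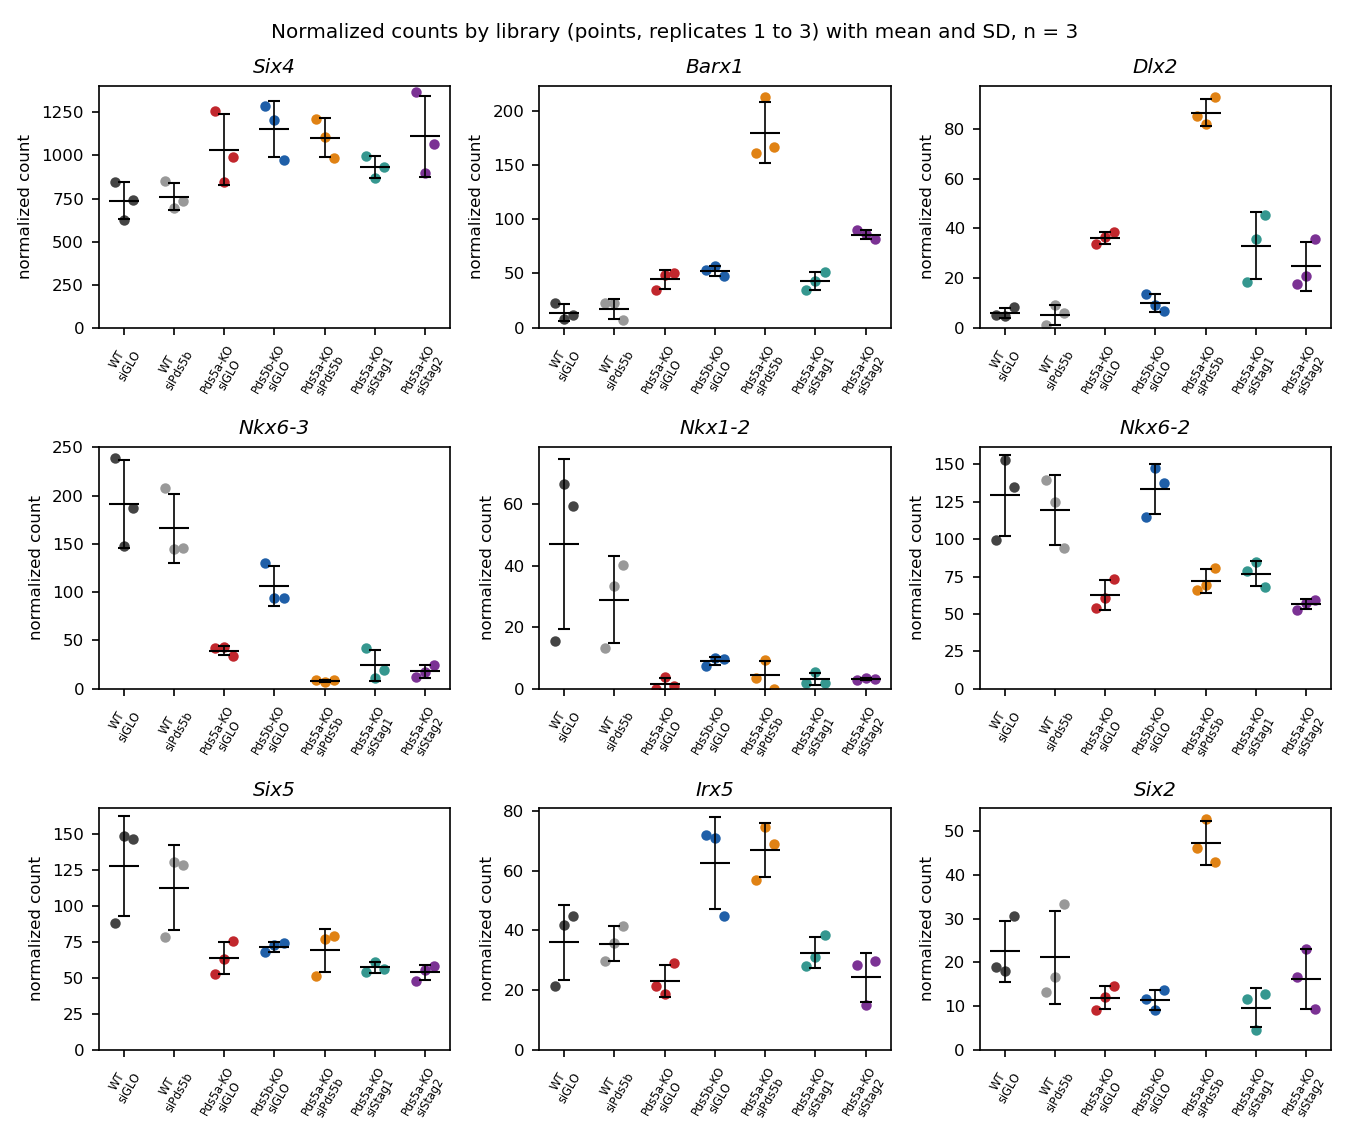
Normalized counts of 9 members in the 21 libraries, each panel with an axis from 0, points for single libraries in the order of their replicate number, and the mean with SD of 3 libraries. Barx1, Dlx2 and Six2 are highest in Pds5a-KO siPds5b, and Nkx6-3, Nkx1-2, Nkx6-2 and Six5 are lower in Pds5a-KO mESCs than in WT mESCs.

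Knockdown of PDS5B alone in WT mESCs gave 0 calls among the 30 tested members by edgeR, against 0.00668% of all tested genes. At an unadjusted p under 0.05, 2 members differed, and DESeq2 called 0. The median log2 fold change of the tested members was -0.10, and it was the same with Lhx9, which had no count in these libraries, at a floor of 3 counts over the group. In Pds5a-KO mESCs siPds5b changed 6 members relative to siGLO, Barx1, Dlx2, Irx5, Nkx2-9 and Six2 higher and Nkx6-3 lower, against 7.59% of tested genes (4.0% higher, 3.59% lower). The median was 0.44. The interaction, which tests whether siPds5b acted differently in the 2 genotypes, called 0 members by edgeR against 1.48% of tested genes, with 7 at an unadjusted p under 0.05, and DESeq2 called 2, Barx1 and Nkx6-3. The count was 2 without WT siGLO replicate 1 and 1 without WT siPds5b replicate 3. With the replicate block 1 member was called, Nkx6-3 (adjusted p = 0.00243).

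siStag1 within Pds5a-KO mESCs called 0 members by edgeR, against 0.0936% of tested genes (0.0134% higher, 0.0802% lower), with 0 at an unadjusted p under 0.05 and 0 by DESeq2. siStag2 called 0 by edgeR, against 2.24% (0.969% higher, 1.27% lower), with 6 at an unadjusted p under 0.05 and 1, Barx1, by DESeq2. Barx1 had 89.8, 86 and 81.8 normalized counts with siStag2 and 34.5, 48.6 and 50.1 with siGLO in Pds5a-KO mESCs, which did not overlap, a log2 difference of 0.95 (SE 0.27, adjusted p = 0.0302) by edgeR. Nkx6-3 had a log2 difference of -1.15 (SE 0.35, adjusted p = 0.0465), also without overlap of the libraries. Neither was called.

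The knockouts compared with each other called 4 members, Dlx2 higher and Irx5, Nkx6-2 and Nkx6-3 lower in Pds5a-KO than in Pds5b-KO siGLO mESCs, against 19.2% of tested genes (9.74% higher, 9.46% lower). Lhx2, Nkx2-9 and Irx1 were called in Pds5b-KO but not in Pds5a-KO mESCs against WT siGLO, and their direct differences of -0.63 (adjusted p = 0.0744), -1.18 (adjusted p = 0.0111) and -0.71 (adjusted p = 0.195) were not called (edgeR). Nkx2-5 and Six4 were likewise called in Pds5b-KO only, and Barx2 and Lhx1 in Pds5a-KO only, with no direct difference called. Without Pds5b-KO siGLO replicate 2 the adjusted p of Nkx2-9 was 0.00699, with the replicate block 0.00948, with RLE scaling 0.00991 and by DESeq2 0.00664. For Nkx1-2 the difference was -2.40 (SE 0.94, adjusted p = 0.0526) by edgeR.

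**Figure D4:**
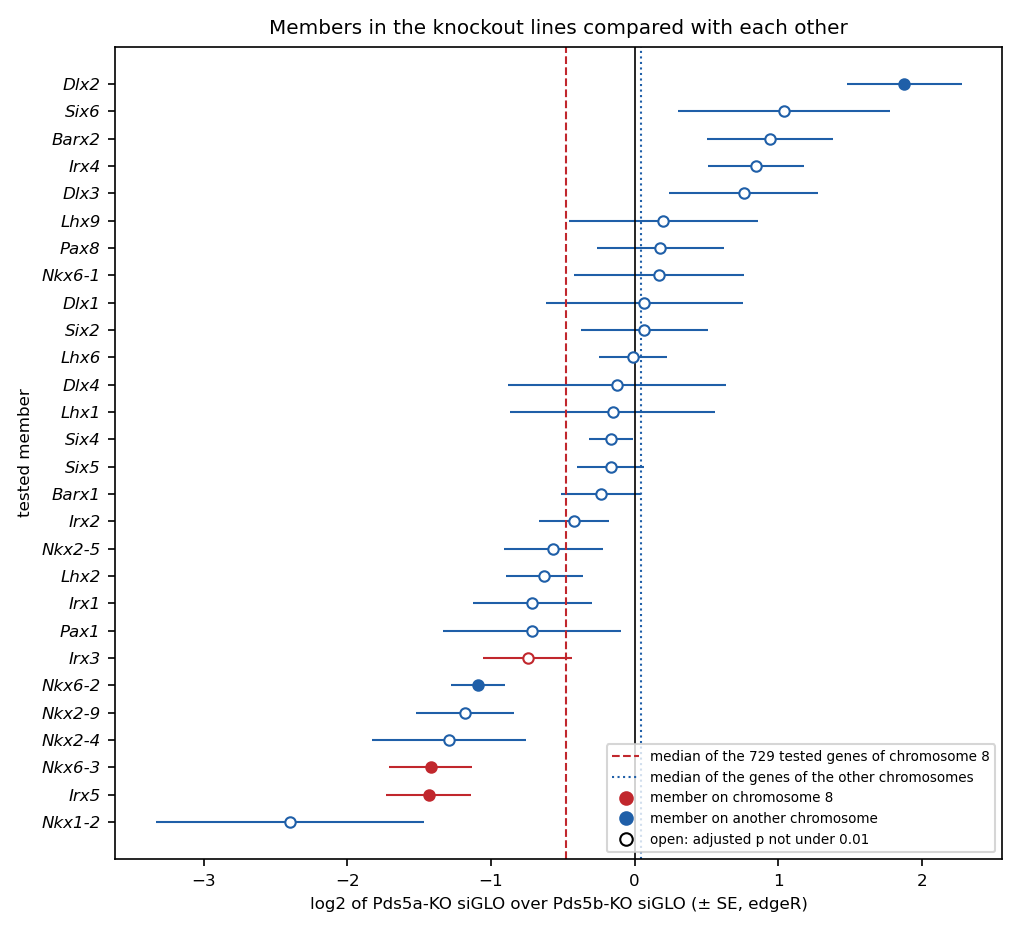
log2 ratio of Pds5a-KO siGLO over Pds5b-KO siGLO for 28 tested members with standard errors derived from the edgeR F statistic, 3 libraries each. Filled points had an adjusted p under 0.01, red points lie on chromosome 8, and the dashed red line marks the median of -0.48 over the 729 tested genes of that chromosome. Irx5 and Nkx6-3 lie to the left of that line, and Dlx2 is the one filled point on the right.

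Members often lie close to one another. Within 1 Mb of each other lay 19 pairs that involve 25 members, and in 9 pairs both were tested. Neighbours did not always move alike in dual PDS5 depletion. Dlx2 rose, and its neighbour Dlx1 was also at its highest. Pax1 rose while Nkx2-4, 276.5 kb away, had an edgeR log2 fold change of 0.47 (adjusted p = 0.485), and Irx1 and Irx4 rose while Irx2 between them had 0.41 (adjusted p = 0.163). No test of neighbourhood was run.

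Partners of the members moved in both directions. Of 10 genes in a list of further LIM homeodomain genes and cofactors, 9 were tested, and in dual PDS5 depletion 2 rose and 2 fell, where 17.4% of all tested genes rose and 14.6% fell. Ldb1, the cofactor of the Lhx proteins, had log2 fold changes of -0.26 (adjusted p = 0.00336) in Pds5a-KO, -0.27 (adjusted p = 0.00219) in Pds5b-KO and -1.08 (adjusted p = 4.17e-12) in dual PDS5 depletion, and Ldb2 of -3.08 (adjusted p = 2.65e-05) by edgeR. Lmo1 (1.90, adjusted p = 0.000352) and Lmx1b (1.87, adjusted p = 0.00952) rose. Of the 6 Eya and Dach genes, partners of Six-type proteins, all were tested and 1 was called in dual PDS5 depletion, Eya2, with 2.03 (adjusted p = 0.000515) by edgeR.

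In a list of 52 other homeobox developmental genes 34 were tested, and 7 rose and 1 fell in dual PDS5 depletion, with a median log2 fold change of 0.48, against 17.4% of all tested genes higher and 14.6% lower. Otx1 (2.64, adjusted p = 9.82e-06) was among those that rose, and En2 (-0.78, adjusted p = 0.00961) was lower, by edgeR. The single knockouts each had 4 higher and 2 lower, against 9.63% higher and 8.12% lower of all tested genes in Pds5a-KO and 9.64% and 8.57% in Pds5b-KO. Of 31 genes of Polycomb complexes, all tested, 12 rose and 5 fell in dual PDS5 depletion, beside the same background, with a median of 0.05. Pcgf5 (1.43, adjusted p = 4.02e-05) and Cbx8 (1.31, adjusted p = 0.0082) rose most, and Ring1 (-0.45, adjusted p = 0.00932) and Pcgf2 (-0.43, adjusted p = 0.000267) fell, by edgeR.

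Some markers of other cell types were called beside the members. In dual PDS5 depletion 3 of the 7 tested neuroectoderm markers were higher and 3 lower, 1 of 7 mesoderm markers was higher and 1 lower, and 1 of 6 fibroblast markers was higher and 1 lower. Of the primitive endoderm markers 1 of 8 was higher, and of the trophoblast markers 5 of 6. Neurog2 (5.66, adjusted p = 1.43e-06) and Zic1 (2.48, adjusted p = 0.000718) rose most among the neuroectoderm markers, and Sox1 (-1.47, adjusted p = 3.24e-05) and Nes (-1.19, adjusted p = 9.58e-05) fell by edgeR. The neuroectoderm list reached summed normalized counts of 3334, 3697 and 3937 with WT siGLO and 1841, 2059 and 1899 in dual PDS5 depletion. The primitive endoderm list summed to 14804, 11845 and 12169.8 in WT siGLO mESCs and 21691, 15554 and 16569.7 in dual PDS5 depletion. The fibroblast list summed to 1072, 1129 and 1501 and to 471, 1082 and 1343 in the same conditions. The part of such cells in the levels of the members was not tested.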

How the data were processed

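Poly-A RNA was sequenced from 21 libraries of mESCs, 3 for each of 7 conditions. The authors deposited raw read counts per gene symbol for each library, made after alignment with STAR to mm10. The counting tool, its annotation and its use of strand are not given in the sources used here. The authors tested their counts with DESeq2.

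The counts were tested with edgeR 4.0.16 in R 4.3.3 (TMM, filterByExpr, robust quasi-likelihood F test). All 21 libraries entered 1 fit with a mean for each condition, and p-values were adjusted by Benjamini-Hochberg over the 14963 tested genes, with calls at an adjusted p under 0.01. A fitted difference smaller than its standard error cannot be resolved with 3 libraries, and members with a few counts per library have wide counting intervals. RPKM was computed from the counts, the TMM-scaled library sizes and the summed exon length of protein-coding transcripts, with overlapping exons counted once. Gene positions were taken from GENCODE vM21 (GRCm38), and promoters from RefSeq. Exact 95% intervals of count ratios were binomial. The functions that fit the models were tested on simulated counts with known changes in dual PDS5 depletion against WT siGLO. DESeq2 1.42.0, RLE scaling, no filter, fits of only the conditions compared, a replicate block and leaving out each library in turn were tried, and the fit without the libraries numbered 1 was added after seeing the data. Figures were drawn with matplotlib 3.10.9 in Python 3.11.15.

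The members and the lists of other genes were chosen with earlier results of these data known. Every member was counted. Values in every library were given for the 20 called members with the smallest adjusted p and for the most abundant member of each family, and other members with a mean of at least 10 normalized counts were given by their range. Lhx9, Nkx6-1 and Six6, called in few comparisons, were added after their values were seen. Of each list, the members with the largest called changes were named. Of the tested members 2, and 1 gene of the list of other homeobox genes, enter the counts but are not reported here by name.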

Additional observations from a re-analysis of the deposited data

Results flagged for a closer look

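The effects of the PDS5A and PDS5B knockouts differed for 4 of the 30 tested members when the lines were compared directly by edgeR, where 19.2% of all tested genes were called. The log2 difference, Pds5a-KO minus Pds5b-KO siGLO, was 1.88 for Dlx2, -1.09 for Nkx6-2, -1.42 for Nkx6-3 and -1.43 for Irx5. Each was called in every fit that left out 1 library. Irx5 and Nkx6-3 lie on chromosome 8, whose 729 tested genes had a median difference of -0.48, and the part of that shift in their values was not tested. No separate test for outlying libraries was run, while fits without each single library and without the libraries numbered 1 were made.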

How the results depend on the processing

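Of the 78 calls of members, 49 were kept in every fit without 1 library, 54 in every other setting and 47 in all, and none changed direction. Over the 330 pairs of a tested member and a comparison, calls lost and gained were 3 and 10 with DESeq2, which gave no adjusted p for 43 pairs, 0 and 1 with RLE scaling, 6 and 0 without a filter, and 16 and 9 without the libraries numbered 1. With only the conditions compared they were 11 and 6 over 261 pairs. In Pds5b-KO siGLO mESCs 10 members were called, and between 3 and 7 without 1 library. For siStag2 within Pds5a-KO mESCs DESeq2 called 1 member where edgeR called 0. For the interaction of genotype and siPds5b edgeR called 0, DESeq2 called 2, and 1 was called with the replicate block, 1 with only the conditions compared, 1 without the libraries numbered 1, and between 0 and 2 without 1 library. The cause was not tested.

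The replicate block lost 0 calls and gained 11. Equal numbers marked a pairing in some comparisons and not in others: deviations of same-numbered libraries correlated with a median of 0.178 over 11728 genes (-0.136 to 0.697, 39 of 63 above 0.1), against -0.0919 for different numbers. Deviations were taken from the mean of each condition, which ties these medians to each other, so -0.0919 is no separate baseline. All correlations of same-numbered libraries exceeded 0.1 in 6 of 21 pairs of conditions. These were WT siGLO with WT siPds5b and with Pds5b-KO siGLO, Pds5a-KO siGLO with Pds5a-KO siPds5b, siStag1 and siStag2, and Pds5a-KO siPds5b with siStag1. There the block gained Lhx1, Nkx6-3 and Pax1 in Pds5b-KO siGLO mESCs and, for the interaction, Nkx6-3, and changed no call of the siRNAs against siGLO within WT or Pds5a-KO mESCs. With the block the counts in Pds5a-KO siGLO, Pds5b-KO siGLO, dual PDS5 depletion, siStag1 and siStag2 against WT siGLO were 13, 13, 23, 12 and 16. With siPds5b in Pds5a-KO mESCs the count was 6, and 5 between the knockouts.

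At this depth 18 of the 48 members had too few counts to be tested, and each knockout was 1 clone.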
